A study of Homo sapiens with 4 samples.

Results

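Histone tails are methylated on lysines by methyltransferases, cleared of methyl groups by demethylases and cleared of acetyl groups by deacetylases. The mRNAs of the 4 gene families named for these activities were followed here between the nucleus and the cytoplasm of HEK293T cells, which were derived from human embryonic kidney and express the large T antigen of SV40. Members were all protein-coding genes whose symbol consists of HDAC, KDM, KMT or SETD and a number. The rule found 48 of the 51740 genes in the deposited table, namely 11 histone deacetylases (HDAC), 20 lysine demethylases (KDM), 8 lysine methyltransferases (KMT) and 9 SET domain proteins (SETD). The rule itself uses no measured value, but it was set with earlier results of these data known.

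Wildtype HEK293T cells were crosslinked with formaldehyde and then split into a cytoplasmic and a total nuclear fraction. Each fraction had 2 biological replicates, so that there were 4 libraries, and both fractions came from the same crosslinked line with no further treatment. Each library was made from 400 ng of ribodepleted RNA. A difference between fractions is therefore relative to the other RNA of each library. A larger amount of a transcript cannot be told apart from a smaller amount of the other RNA of that fraction.

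Many of these enzymes work in the nucleus on chromatin, but their mRNAs are translated in the cytoplasm like any other. HDAC1, HDAC2 and HDAC3 are the catalytic subunits of corepressor complexes, whereas the class IIa deacetylases move between both compartments. SETD1A, SETD1B and KMT2A to KMT2D place methyl groups on lysine 4 of histone H3 within COMPASS complexes, and demethylases of the KDM1 and KDM5 families take them off. Many of the other demethylases and methyltransferases act on lysines 9, 27 and 36 of histone H3 or lysine 20 of histone H4. Several members, HDAC6, HDAC10 and SETD3 among them, have substrates other than histones. Reads over introns were counted together with reads over exons, so unspliced transcripts contributed to each gene's value in both fractions.

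The nuclear lncRNAs MALAT1 and NEAT1 had log2 fold changes of -3.47 and -3.09, where a negative value means a higher normalised count in the nuclear fraction. All 7 genes listed as markers of HEK293T cells were detected, from a mean normalised count of 63.1 for PAX2 to 18261 for VIM. Markers of other cell types were at or near 0 (0.293 for both CD3E and HBB, 0.793 for ALB, 1.76 for PTPRC and 7.85 for MYOD1), except COL1A1 at 213. Counts of single libraries were recovered for 13616 genes and summed to 21467605 and 18608063 in the nuclear libraries and to 14342075 and 13172751 in the cytoplasmic libraries. Below, values of single libraries are normalised counts, that is counts divided by the size factor of the library, and the deeper library of a fraction is given first.

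Of the 48 genes, 45 were tested and 3 had no count in any library. The 3 were KDM4E and KDM4F, neighbours on chromosome 11, and KDM5D on chromosome Y. A count of 0 allows up to 3 counts in each library. All 45 tested genes had a mean normalised count over 50, from 85.3 for SETD9 to 8931 for KDM5C, so that no tested member was lost to a filter on low values. These means are counts and were not corrected for gene length, and after KDM5C the highest were those of KMT2C (5730.3), KDM6A (5591), KMT2A (5547) and KMT2D (5168). Per kb of annotated exon, although reads over introns are included, the mean of the cytoplasmic libraries was highest for HDAC1 (1368 normalised counts per kb) and KDM5C (1019) and lowest for HDAC9 (16.5) and HDAC10 (15.6).

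The 4 families were split between the fractions. With the threshold on the DESeq2 adjusted p-value set to 0.01, 16 of the 45 tested members were higher in the cytoplasmic fraction, 18 were higher in the nuclear fraction and 11 passed in neither direction. These are 35.6% and 40.0% of the members, beside 35.6% and 28.4% of the 15336 tested protein-coding genes (63.9% in either direction) and 43.6% and 33.1% of the 12134 protein-coding genes with a mean over 50. The median log2 fold change of cytoplasm over nucleus was 0.02 for the members, 0.11 for tested protein-coding genes and 0.22 for those with a mean over 50. A log2 fold change over 1 was reached by 6 cytoplasmic members, and one under -1 by 14 nuclear members. Among protein-coding genes with a mean over 50, 31.1% were called with a log2 fold change over 1 and 22.3% with one under -1. When both fractions were scaled to equal totals, every log2 fold change fell by 0.66, and 6 members were called cytoplasmic and 27 nuclear. The cytoplasmic members under that scale were HDAC1, HDAC3, HDAC5, KDM1A, KDM5C and SETD9, and all 18 nuclear calls were kept. Protein-coding genes were at 22.4% and 42.6% under the same scale. A total is a sum over genes, so genes with high counts weigh most in this shift of 0.66. The genes with counts recovered per library, with means from 50 to 10000, hold 70.4% of all normalised counts. How much of the shift came from the other genes was not tested, so the scale need not be a neutral correction for depth.

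**Figure D1:**
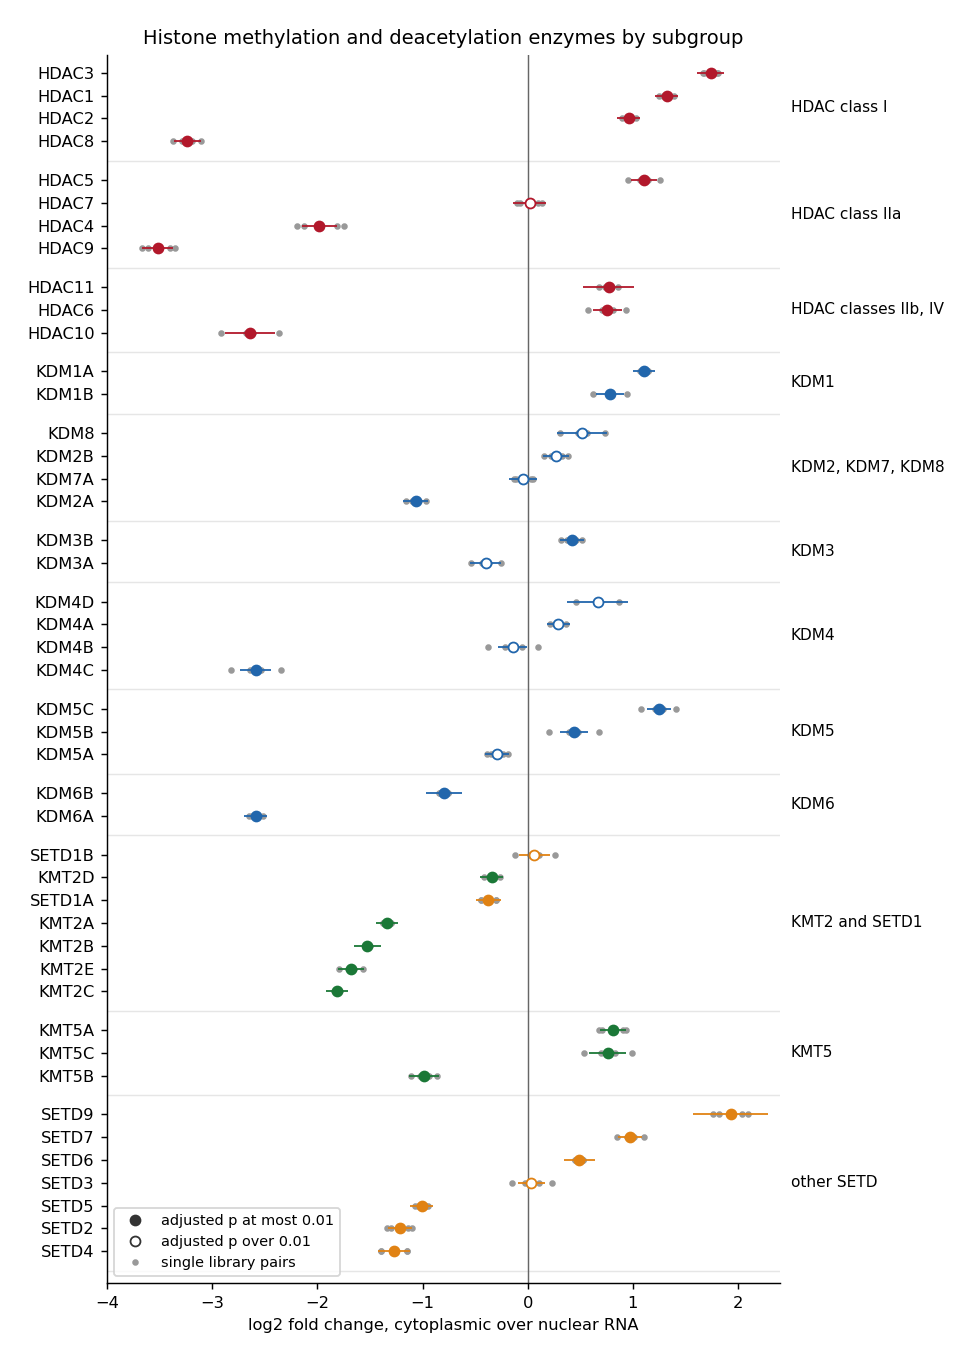
Log2 fold change of cytoplasmic over nuclear RNA (x axis) for the 45 tested genes, grouped by subgroup and coloured by family. Large points are the deposited DESeq2 estimates with bars of 1 standard error, filled where the adjusted p-value was at most 0.01, and small grey points are the 4 differences between single cytoplasmic and nuclear libraries. Values run from -3.52 for HDAC9 to 1.93 for SETD9, and 6 of the 7 KMT2 and SETD1 genes lie on the nuclear side with filled points.

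The deacetylases held the widest range. In all, 6 of 11 HDAC genes were higher in the cytoplasm and 4 in the nucleus, with a median log2 fold change of 0.75. The 3 catalytic subunits of corepressor complexes were all cytoplasmic. HDAC3, the deacetylase of the NCOR complexes (hg38 chromosome 5, 141620876 to 141636849, minus strand), had normalised counts of 692 and 697 in the nuclear and 2214 and 2426 in the cytoplasmic libraries. Both cytoplasmic values were more than 3 times the nuclear ones, with a log2 fold change of 1.74 (standard error 0.13, adjusted p = 2.62e-41). HDAC1 (hg38 chromosome 1, 32292083 to 32333635, plus strand), which pairs with HDAC2 in the SIN3, NuRD and CoREST complexes, was at 2199.9 and 2140.1 in the nuclear and 5232 and 5622 in the cytoplasmic libraries. HDAC2 (hg38 chromosome 6, 113933028 to 114011308, minus strand) was at 2274 and 2408 in the nucleus and 4644 and 4477 in the cytoplasm. The libraries of the fractions did not overlap for either gene, and the log2 fold changes were 1.32 and 0.96, each with a standard error of 0.11. HDAC8, the class I enzyme that deacetylates the cohesin subunit SMC3 (hg38 chromosome X, 72329516 to 72573101, minus strand), went the other way. It had 4927 and 4635 normalised counts in the nuclear and 538 and 474 in the cytoplasmic libraries, a log2 fold change of -3.24 (standard error 0.13, adjusted p = 2.95e-142).

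Class IIa deacetylases, which bind MEF2 transcription factors and have weak deacetylase activity of their own, were found in both directions. HDAC5 (hg38 chromosome 17, 44076746 to 44123702, minus strand) was at 1562 and 1447 in the nuclear and 3031 and 3455 in the cytoplasmic libraries, with a log2 fold change of 1.11 (standard error 0.12). HDAC7 had overlapping libraries, at 619 and 633 in the nucleus and 679 and 589.7 in the cytoplasm, and its log2 fold change of 0.02 had an adjusted p of 0.925. HDAC4 (hg38 chromosome 2, 239048168 to 239401654, minus strand) was at 1811 and 1391 in the nuclear and 396 and 415 in the cytoplasmic libraries, and HDAC9 (hg38 chromosome 7, 18086949 to 19002416, plus strand) at 3565 and 2971 in the nucleus and 280.2 and 290.2 in the cytoplasm. Both were nuclear with no overlap of libraries, at log2 fold changes of -1.98 (standard error 0.16) and -3.52 (standard error 0.15), and HDAC9 was the lowest of all 45 members. Their nuclear replicates differed, with the deeper library higher by 0.38 on the log2 scale for HDAC4 and by 0.26 for HDAC9.

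In classes IIb and IV, HDAC6, the deacetylase of tubulin, was at 936 and 1099.9 in the nuclear and 1640.3 and 1794 in the cytoplasmic libraries, a log2 fold change of 0.75 (standard error 0.14). HDAC11, the single class IV enzyme, had fewer counts, 136 and 125 in the nucleus and 227 and 219 in the cytoplasm, and a log2 fold change of 0.77 (standard error 0.25, adjusted p = 0.00372). HDAC10, which deacetylates polyamines (hg38 chromosome 22, 50245183 to 50251405, minus strand), was at 443 and 525 in the nuclear libraries and 85.6 and 68.9 in the cytoplasmic libraries. Its log2 fold change of -2.64 (standard error 0.24, adjusted p = 2.01e-27) came with a span of 6.22 kb, the shortest of all tested members. In GENCODE 44, the whole span of HDAC10 is also covered by other genes, MAPK12 and an unnamed gene, and their part in its value was not tested.

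**Figure D2:**
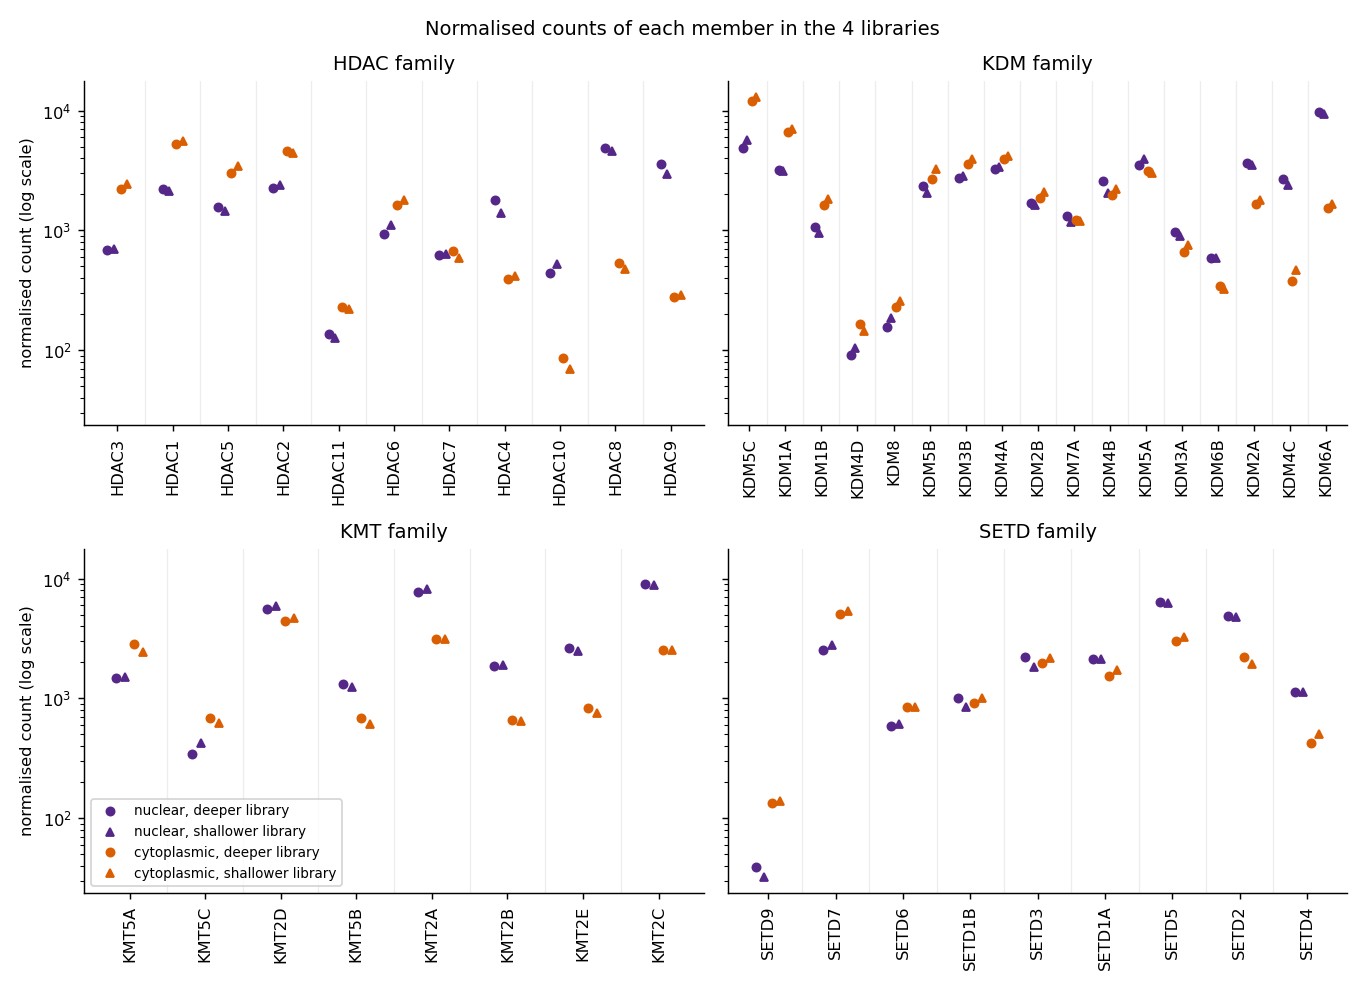
Normalised counts (y axis, log scale) of the 45 tested genes in the 4 libraries, with nuclear libraries in purple, cytoplasmic libraries in orange, circles for the deeper and triangles for the shallower library of each fraction. Genes are ordered within each family by their log2 fold change. The libraries of the fractions overlap for HDAC7, KDM4B, KDM7A, SETD1B and SETD3 and are apart for the others, as for KDM6A at 9703 and 9472 in the nucleus and 1539.5 and 1649.9 in the cytoplasm.

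Among the demethylases, 5 of the 17 tested KDM genes were higher in the cytoplasm, 4 were higher in the nucleus and 8 passed in neither direction. The median log2 fold change was 0.27. KDM1A and KDM1B, the flavin-dependent enzymes that remove methyl groups from lysine 4 of histone H3, were both cytoplasmic. KDM1A (hg38 chromosome 1, 23019443 to 23083689, plus strand), which works with HDAC1 and HDAC2 in the CoREST complex, was at 3176 and 3167 in the nuclear and 6668 and 7010.3 in the cytoplasmic libraries, with a log2 fold change of 1.11 (standard error 0.11). KDM1B was at 1062 and 958 in the nucleus and 1631 and 1842 in the cytoplasm, with a log2 fold change of 0.78 (standard error 0.13). No library of one fraction overlapped the other for these genes.

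The JmjC demethylases of lysine 4, the KDM5 genes, were cytoplasmic or not called. KDM5C, an X-linked gene (hg38 chromosome X, 53176283 to 53225422, minus strand), was at 4924 and 5679 in the nuclear and 12002 and 13117 in the cytoplasmic libraries. Its log2 fold change was 1.24 (standard error 0.11, adjusted p = 8.39e-27). KDM5B rose from 2339 and 2042 in the nuclear to 2684 and 3268 in the cytoplasmic libraries, with a log2 fold change of 0.44 and an adjusted p of 0.0021. In a refit of the recovered counts it lost its call without the shallower nuclear library (log2 fold change 0.35) or the shallower cytoplasmic library (log2 fold change 0.29). KDM5A was at 3556 and 3963 in the nuclear and 3115 and 3020.1 in the cytoplasmic libraries, which did not overlap, but its log2 fold change of -0.29 (standard error 0.11) did not pass the threshold (adjusted p = 0.019).

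The H3K27 demethylases were both nuclear. KDM6A, also X-linked and a partner of KMT2C and KMT2D in their complexes (hg38 chromosome X, 44873188 to 45112779, plus strand), was at 9703 and 9472 in the nuclear and 1539.5 and 1649.9 in the cytoplasmic libraries. Every nuclear library was above every cytoplasmic one, with a log2 fold change of -2.59 (standard error 0.11, adjusted p = 2.02e-124). KDM6B, whose gene of 20.6 kb is known to be induced by inflammatory stimuli, was at 583 and 584 in the nucleus and 345 and 326 in the cytoplasm, a log2 fold change of -0.80 (standard error 0.17).

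The demethylases of lysines 9 and 36 lay mostly between the fractions. Of the KDM4 genes, KDM4C alone was called (hg38 chromosome 9, 6720863 to 7175648, plus strand). It was at 2705 and 2381 in the nuclear and 381 and 466 in the cytoplasmic libraries, with a log2 fold change of -2.59 (standard error 0.15). KDM4A was at 3278 and 3396 in the nucleus and 3934 and 4221 in the cytoplasm (log2 fold change 0.29, adjusted p = 0.0159), and KDM4D at 90.2 and 105 in the nucleus and 165 and 144 in the cytoplasm (log2 fold change 0.67, adjusted p = 0.0366). Both had higher values in each cytoplasmic than in each nuclear library, without passing the threshold. KDM4B overlapped between fractions, at 2583 and 2070.3 in the nucleus and 1994 and 2217 in the cytoplasm with a log2 fold change of -0.14 (adjusted p = 0.374), and its nuclear replicates differed by 0.32 on the log2 scale.

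Of the KDM3 pair, which removes methyl groups from lysine 9, KDM3B was called cytoplasmic at 2764 and 2869 in the nuclear and 3577 and 3948 in the cytoplasmic libraries (log2 fold change 0.42, standard error 0.11). The call was lost without the shallower cytoplasmic library (log2 fold change 0.35). KDM3A was at 963 and 896 in the nucleus and 661 and 749 in the cytoplasm (log2 fold change -0.40, adjusted p = 0.0133). The difference of KDM3A minus KDM3B was -0.82 with a combined standard error of 0.19.

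KDM2A and KDM2B bind unmethylated CpG islands, and KDM2B recruits a variant Polycomb complex to them. KDM2A (hg38 chromosome 11, 67119263 to 67258082, plus strand) was at 3689 and 3531 in the nuclear and 1649 and 1799.6 in the cytoplasmic libraries and was called nuclear (log2 fold change -1.07, standard error 0.12). KDM2B was at 1686 and 1616 in the nucleus and 1879.5 and 2107 in the cytoplasm (log2 fold change 0.27, adjusted p = 0.0492), higher in both cytoplasmic libraries but not called. KDM7A overlapped between fractions at 1318 and 1176 in the nucleus and 1221 and 1202 in the cytoplasm (log2 fold change -0.04, adjusted p = 0.808). KDM8, at 155 and 186 in the nucleus and 229.8 and 258 in the cytoplasm, had a log2 fold change of 0.52 (standard error 0.24, adjusted p = 0.0487).

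Of the 5 KMT2 and 2 SETD1 genes, 6 were higher in the nucleus and none in the cytoplasm, beside 33.1% and 43.6% of protein-coding genes with a mean over 50. The median log2 fold change was -1.34. Without KMT2E, which is not an established methyltransferase of lysine 4, 5 of 6 were nuclear and the median was -0.86. KMT2C and KMT2D, which methylate enhancers, differed from each other. KMT2C (hg38 chromosome 7, 152134922 to 152436644, minus strand) was at 9041 and 8808 in the nuclear and 2522 and 2551 in the cytoplasmic libraries, with a log2 fold change of -1.81 (standard error 0.10, adjusted p = 2.79e-66). KMT2D (hg38 chromosome 12, 49018975 to 49060794, minus strand) was at 5602 and 5956 in the nucleus and 4449.7 and 4666 in the cytoplasm, with a log2 fold change of -0.34 (standard error 0.11, adjusted p = 0.00281). The call of KMT2D was lost without the shallower nuclear library (log2 fold change -0.30) or the deeper cytoplasmic library (log2 fold change -0.31).

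KMT2A and KMT2B, which bind menin, had similar ratios at different counts. KMT2A (hg38 chromosome 11, 118436456 to 118526832, plus strand) was at 7732 and 8174 in the nuclear and 3142 and 3139 in the cytoplasmic libraries (log2 fold change -1.34, standard error 0.11). KMT2B (hg38 chromosome 19, 35717973 to 35738880, plus strand) was at 1851 and 1894 in the nucleus and 655 and 645 in the cytoplasm (log2 fold change -1.53, standard error 0.13). KMT2A exceeded KMT2B by 0.18 with a combined standard error of 0.17, so that the difference was about as large as its error. KMT2E, a divergent member of the family without established catalytic activity, was at 2619 and 2468 in the nucleus and 831 and 754 in the cytoplasm (log2 fold change -1.68, standard error 0.13). For these 5 genes, both nuclear libraries were above both cytoplasmic ones.

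SETD1A and SETD1B, the catalytic subunits of the COMPASS complexes that act at most promoters, had small log2 fold changes as deposited. With equal totals of the fractions they were at -1.04 and -0.60, and both were called nuclear. SETD1A was at 2118 and 2119 in the nuclear and 1552 and 1716 in the cytoplasmic libraries, a log2 fold change of -0.37 (standard error 0.12, adjusted p = 0.00424). Its call was lost without the deeper nuclear, shallower nuclear or deeper cytoplasmic library. The log2 fold changes in these refits were -0.375, -0.374 and -0.304, so that leaving out a nuclear library hardly moved the estimate. SETD1B overlapped between fractions at 999 and 851 in the nucleus and 917 and 1016 in the cytoplasm (log2 fold change 0.06, adjusted p = 0.741).

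The H4K20 methyltransferases were split. KMT5A, which places the first methyl group on lysine 20 of histone H4, was at 1483 and 1514 in the nuclear and 2837 and 2422 in the cytoplasmic libraries (log2 fold change 0.81, standard error 0.13). KMT5B and KMT5C add the further methyl groups. KMT5B (hg38 chromosome 11, 68154863 to 68213852, minus strand) was at 1325 and 1253 in the nucleus and 689 and 614 in the cytoplasm and was nuclear (log2 fold change -0.98, standard error 0.14), whereas KMT5C (hg38 chromosome 19, 55339853 to 55348121, plus strand) was at 346 and 425 in the nucleus and 689 and 618 in the cytoplasm and was cytoplasmic (log2 fold change 0.76, standard error 0.18). No library of one fraction overlapped the other for the 3 genes.

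The other SETD genes were divided between 3 cytoplasmic, 3 nuclear and 1 that was not called. SETD9 (hg38 chromosome 5, 56909260 to 56925532, plus strand) had the highest log2 fold change of all members, 1.93, but the lowest counts, 38.8 and 32 in the nuclear and 132 and 138 in the cytoplasmic libraries, and the largest standard error (0.35, adjusted p = 1.52e-07). SETD7, which outside the COMPASS complexes methylates lysine 4 of histone H3 and many other proteins (hg38 chromosome 4, 139495941 to 139606699, minus strand), was at 2515 and 2809 in the nucleus and 5077 and 5404 in the cytoplasm (log2 fold change 0.98, standard error 0.11). SETD6, a methyltransferase of the NF-kB subunit RELA, was at 583 and 613 in the nucleus and 839.5 and 840.2 in the cytoplasm (log2 fold change 0.49, standard error 0.15). The call of SETD6 was lost without the deeper nuclear library (log2 fold change 0.45). SETD2, the enzyme for trimethylation of lysine 36 (hg38 chromosome 3, 47016428 to 47164113, minus strand), was at 4892 and 4769.6 in the nuclear and 2219.6 and 1939 in the cytoplasmic libraries (log2 fold change -1.22, standard error 0.12). SETD5 was at 6346 and 6234 in the nucleus and 3015 and 3240.1 in the cytoplasm (log2 fold change -1.01, standard error 0.11), and SETD4 at 1123 and 1124 in the nucleus and 427 and 506 in the cytoplasm (log2 fold change -1.27, standard error 0.15). For these 3 genes both nuclear libraries were above both cytoplasmic ones. SETD3, a histidine methyltransferase of actin, overlapped between fractions at 2204 and 1845 in the nucleus and 1991 and 2161 in the cytoplasm (log2 fold change 0.04, adjusted p = 0.834).

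Closely related genes were then set side by side in 17 pairs, as a description without a test. In 14 pairs the log2 fold changes differed by more than 2 combined standard errors, and in 3 pairs the genes were called in opposite directions. Neither number was counted over pairs of other genes. Protein-coding genes with a mean over 50 ran from -5.91 to 4.44 with a median standard error of 0.15. Such gaps need therefore not be particular to these pairs. HDAC4 was lower than HDAC5 by 3.09 on the log2 scale (combined standard error 0.20), and the difference over the 4 pairings of libraries ran from -3.27 to -2.88. KMT5A exceeded KMT5B by 1.80 (combined standard error 0.19), and KMT5C exceeded KMT5B by 1.75 (combined standard error 0.23). Within a direction or against an uncalled gene, the widest gaps were those of KDM4A over KDM4C, 2.88 (combined standard error 0.18), and of KDM4B over KDM4C, 2.44 (combined standard error 0.20). HDAC7 exceeded HDAC4 by 2.00 (combined standard error 0.23), KDM6B exceeded KDM6A by 1.79 (combined standard error 0.20) and KMT2D exceeded KMT2C by 1.47 (combined standard error 0.15). The 3 pairs that differed by less than 2 combined standard errors were KDM1A and KDM1B, KMT2A and KMT2B, and SETD2 and SETD5. For SETD2 minus SETD5 the difference was -0.21 (combined standard error 0.16).

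**Figure D3:**
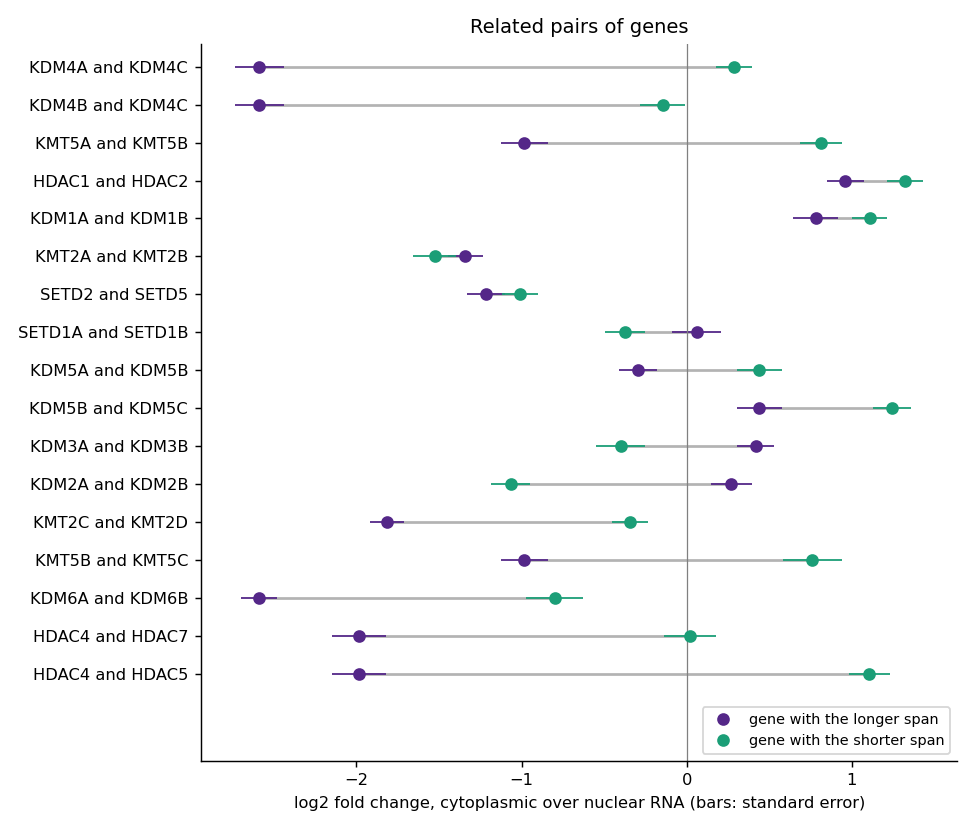
Log2 fold change of cytoplasmic over nuclear RNA (x axis) of both genes in each of the 17 pairs, with bars of 1 standard error and a line joining the genes of a pair. Purple marks the gene with the longer span and green the one with the shorter span, and in 13 of the pairs the purple point lies to the left. Some genes recur across pairs, and the pairs were chosen with earlier results of these data known.

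In 13 of the 17 pairs the gene with the longer span, from the first to the last annotated base, had the lower log2 fold change. The pairs were chosen with earlier results of these data known. HDAC4, KDM4C, KDM5B and KMT5B recur across pairs, so the pairs are not independent and the count is a description only. The share was not counted over pairs of other genes, and the correlations below show that longer protein-coding genes in general had lower values. HDAC4 spans 353 kb and HDAC5 47 kb, and KDM6A spans 239.6 kb and KDM6B 20.6 kb. The other 4 pairs were KDM2A and KDM2B, KDM3A and KDM3B, KMT2A and KMT2B, and SETD1A and SETD1B. Across the 45 members, the Spearman correlation of span with the log2 fold change was -0.50, and it was -0.71 across the 12134 protein-coding genes with a mean over 50. Both are across genes of the same 4 libraries, genes are not independent replicates, and reads over introns were counted. The correlation with the number of exon blocks was -0.60 for members and -0.56 for protein-coding genes, and with exonic length it was -0.46 and -0.45. Within families the correlation with span was -0.48 for HDAC (n = 11), -0.57 for KDM (n = 17), -0.71 for KMT (n = 8) and -0.40 for SETD (n = 9).

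Split by span, the 15 longest members, from 90.4 to 915 kb, held 10 nuclear calls and 1 cytoplasmic call. Of the 2981 protein-coding genes with a mean over 50 in the same range of spans, 75.1% were nuclear and 7.11% cytoplasmic. The cytoplasmic one was SETD7, at 111 kb. The 15 shortest, from 6.22 to 41.6 kb, held 8 cytoplasmic and 4 nuclear calls, and the 15 between them held 7 and 4. Protein-coding genes in these ranges were at 62.2% cytoplasmic and 13.2% nuclear among the shortest and at 29.6% and 35.6% in the middle. The 4 short nuclear genes were HDAC10, KDM6B, KMT2B and SETD1A.

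Each member was also placed among the protein-coding genes of its own span decile. HDAC10 was the most nuclear for its span, with 1.40% of the genes of its decile at a lower log2 fold change. KMT2B followed at 4.29%, SETD4 at 9.41%, HDAC9 at 11.1% and KDM6B at 11.2%. The decile of HDAC9 is wide, from 191 to 2305 kb with a median of 299 kb. HDAC9 spans 915 kb, so most genes of its decile are much shorter and do not match its span. At the other end were SETD7, with 94.6% of its decile at lower values, HDAC2 with 94.4%, KDM1A with 91.0%, HDAC1 with 89.9% and KDM2B with 89.6%. KMT2C and HDAC4, nuclear on the plain scale, lay near the middle of their deciles at 56.2% and 51.0%.

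**Figure D4:**
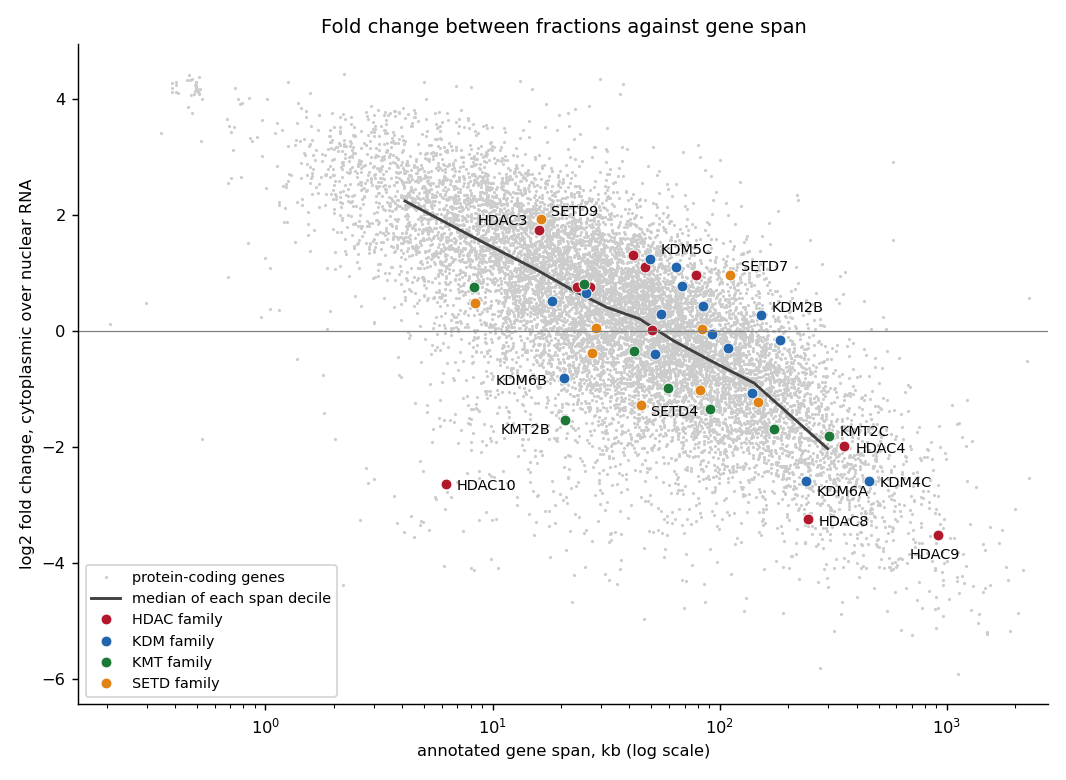
Log2 fold change of cytoplasmic over nuclear RNA (y axis) against the annotated span in kb (x axis, log scale) for members, coloured by family, and for 12134 protein-coding genes with a mean over 50 in grey, with the median of each span decile as a line. The grey cloud falls with span, members follow it with a Spearman correlation of -0.50, and HDAC10 at 6.22 kb lies far below the line.

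For 40 of the 45 members the libraries of the fractions did not overlap, 20 in each direction, beside 51.6% and 41.5% of the recovered protein-coding genes, or 93% in either direction. The 5 members with overlapping libraries were HDAC7, KDM4B, KDM7A, SETD1B and SETD3, none of which was called. The log2 ratio of the deeper over the shallower nuclear library ran from -0.30 for KMT5C to 0.38 for HDAC4, with a median absolute value of 0.088, beside 0.117 for recovered protein-coding genes. That ratio itself correlated with span, with a Spearman correlation of 0.48 across members and 0.43 across protein-coding genes, whereas the ratio of the cytoplasmic libraries did not to that extent (-0.12 and 0.04). Without one library at a time, 13 to 15 members were called cytoplasmic and 16 to 18 nuclear, and no member was called in the opposite direction. HDAC11 lost its call without the shallower nuclear (log2 fold change 0.71), deeper cytoplasmic (0.74) or shallower cytoplasmic library (0.80), beside 0.77 with all libraries. Such refits rest on fewer libraries, so a lost call alone does not show that an estimate moved.

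The families were compared with 103 further genes of the same pathways, of which 101 were tested, 41 of them higher in the cytoplasm and 40 in the nucleus. These are 40.6% and 39.6%, beside 35.6% and 28.4% of the tested protein-coding genes. Of protein-coding genes with a mean over 50, 43.6% and 33.1% were called. The counts of each list are to be read against the same shares. With equal totals of the fractions, 24 of the 101 were cytoplasmic and 52 nuclear, beside 22.4% and 42.6% of the tested protein-coding genes on that scale. Of the 12 non-catalytic partners of the COMPASS and MLL complexes, 8 were cytoplasmic and 3 nuclear, and the 6 KMT2 and SETD1 genes without KMT2E held no cytoplasmic call. Their median log2 fold changes were 0.57 and -0.86, and their median spans were 34.7 and 35.2 kb. Their median exonic lengths differed, at 5.38 and 18.1 kb, and the part of length in the comparison was not tested. With equal totals the partners held 5 cytoplasmic and 3 nuclear calls with a median of -0.089, and the 6 genes were all nuclear with a median of -1.52. PAGR1, a small subunit of the KMT2C and KMT2D complexes, had a log2 fold change of 2.45, and the coactivator NCOA6 of the same complexes -1.15. Partners of the deacetylase complexes were divided, 11 cytoplasmic and 12 nuclear of 25, from SAP18 at 2.75 to RCOR3 at -1.99. Partners of PRC2, the Polycomb complex that methylates lysine 27, held 2 cytoplasmic and 4 nuclear calls among 7, from EPOP at 3.01 to AEBP2 at -2.04.

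Among other enzymes, 3 of 7 sirtuins, the NAD-dependent deacetylases, were cytoplasmic and 1 was nuclear, from SIRT2 at 1.39 to SIRT1 at -0.58. Of 21 other lysine methyltransferases, 6 were cytoplasmic and 10 nuclear, with SUV39H1 at 1.61 and SMYD3 at -3.88 as the ends. Of 8 tested genes listed as other demethylases, 3 were cytoplasmic and 2 nuclear, from RIOX1 at 2.35 to JMJD1C at -3.33. The nuclear ones were JMJD1C and JARID2, and whether each listed gene has demethylase activity was not examined. Acetyltransferases held 3 cytoplasmic and 5 nuclear calls among 12, from KAT5 at 1.68 to KAT6B at -2.09. Arginine methyltransferases held 5 and 3 among 9, with PRMT6 highest at 2.64 and PRMT8 lowest, listed at -4.38 with a mean normalised count of 2.38 and not called (adjusted p = 0.0987).

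**Figure D5:**
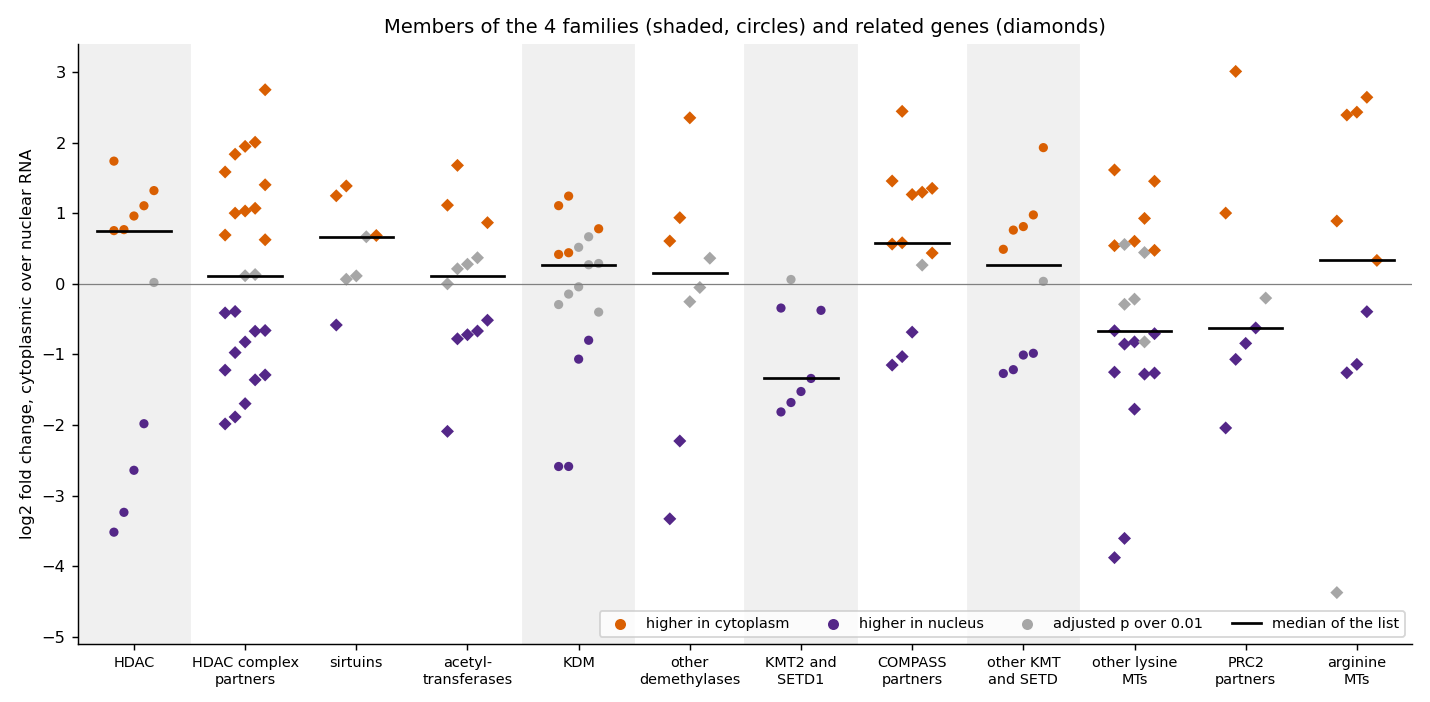
Log2 fold change of cytoplasmic over nuclear RNA (y axis) of single genes, for members of the 4 families (circles, shaded columns) and for the lists of related genes (diamonds), with orange for genes higher in the cytoplasm, purple for genes higher in the nucleus, grey for genes that were not called and a black line at the median. The KMT2 and SETD1 genes, KMT2E included, have a median of -1.34, and the partners of the COMPASS and MLL complexes one of 0.57.

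Annotated overlaps touched many of these genes. In GENCODE 44, 33 of the 45 members share part of their span with another gene, 30 of them with a gene on the opposite strand, and for 12 more than 20% of the exonic length is shared. The study removed stretches covered by several genes from its own earlier annotation before counting. It also removed annotated readthrough transcripts, which make regions appear to overlap. Counting may therefore not have used the full length of some of these genes. The share was 100% of the exonic length for HDAC10 and KDM4A, 98.9% for HDAC8, 97.2% for KDM1A and 55.8% for KMT2A in the later release. How much of each was removed in the release used for counting is not given in the sources used here, and its part in the values was not tested.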

How the data were processed

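RNA of 2 nuclear and 2 cytoplasmic fractions of crosslinked HEK293T cells was sequenced with paired reads of 100 nt by the authors. The authors aligned reads to hg38 with STAR, counted them per gene over exons and introns with featureCounts 2.0.2 (minimum overlap of 20 bases) on an annotation built from GENCODE 34, and compared the fractions with DESeq2. The deposited table gives per gene the mean normalised count, a signal averaged over all 4 libraries by the authors, the log2 fold change of cytoplasm over nucleus with its standard error on the log2 scale, which the authors estimated, the Wald score of the authors' fit, and the p-values of that test as deposited, before and after adjustment. The score differed from the ratio of fold change to standard error by at most 1.79e-07. Each decile of span holds 1213 or 1214 protein-coding genes with a mean over 50. Calls used the deposited adjusted p-value at the study's threshold of 0.01. The deposited table has no column for a single library.

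Whole counts per library were therefore recovered. A mean is a sum of 4 whole counts, each multiplied by a step of its library, and the steps were read from genes with 1 count. For genes with means from 50 to 10000, whole-number combinations that gave the deposited mean were searched. The search took ever wider differences between replicates until one also gave the deposited fold change and standard error under the negative binomial model. One solution was found for 13616 of 13700 genes, including all 45 tested members, whose fold changes were met to within 9.91e-08. The next combination of a member was at least 259 times farther off. Tested on simulated data, 200 of 200 genes were returned exactly. Their fold changes and errors were made with the same model at a fixed dispersion, and their means lay below those of the highest members. The simulation therefore does not test how closely that model follows DESeq2. Size factors were 1.34 and 1.19 for the nuclear and 0.853 and 0.755 for the cytoplasmic libraries, and the recovered genes hold 70.4% of all normalised counts. Which replicate number belongs to which library is not known from the table, so libraries are called deeper and shallower. No p-value printed in the text comes from the recovered counts. They gave calls only in refits, such as those that leave out 1 library or add a replicate block. The refits without 1 library keep the dispersions and size factors, use a Wald test and Benjamini-Hochberg adjustment over the 13616 genes, and assume that a lone library varies like the others. The replicate block was fitted with limma 3.58.1 in R 4.3.3 on log2 of the recovered normalised counts plus 0.5, once for each possible pairing of the libraries, and tested on simulated data. Counts of a member in one library ranged from 38 to 13011, and genes with fewer counts had larger standard errors. A count of 0 allows 3 counts, which covers counting error only. Log2 differences between single libraries used a pseudocount of 0.5.

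Spans, exons and coordinates came from GENCODE 44 on hg38, matched for 99.1% of tested genes and all tested members. Tools were Python 3.11.15 with numpy 2.4.6, scipy 1.17.1, pandas 2.3.3, statsmodels 0.14.6, numba 0.67.0 and matplotlib 3.10.9. The members, subgroups, pairs and lists of related genes were chosen with earlier results of these data known. Named with values were the highest and lowest gene of each subgroup, all genes of the pairs, the 5 members with the highest means and the ends of each further list, and the other members were added so that each is accounted for. Alternatives changed the scaling, the adjustment, the threshold, the filter on low values, the minimum fold change and the set of libraries.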

Additional observations from a re-analysis of the deposited data

How the results depend on the processing

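The replicate number of each library is not known from the deposited table, so a replicate block was fitted under both possible pairings with limma on the recovered counts, added after the data were seen. Members called cytoplasmic and nuclear numbered 17 and 19 with the deeper libraries paired, 19 and 20 with each deeper library paired with the shallower one of the other fraction, and 18 and 19 without a block. All 16 cytoplasmic and 18 nuclear calls were kept in the 3 fits, and those gained in at least 1 of them were KDM3A, KDM4A, KDM4D, KDM5A and KDM8. Across 13615 genes the deviations of same-depth libraries correlated at -0.19, and those of the crossed pairing at 0.19, which does not settle the pairing.

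With equal totals of the fractions, 6 members were higher in the cytoplasm instead of 16, and the 10 lost were HDAC2, HDAC6, HDAC11, KDM1B, KDM3B, KDM5B, KMT5A, KMT5C, SETD6 and SETD7. Genes with high counts weigh most in such totals, and their part in this loss was not tested. The counts of cytoplasmic and nuclear members were 12 and 20 when centred on the protein-coding median, 11 and 15 with Bonferroni adjustment, 20 and 20 at an adjusted p-value of 0.05, 16 and 19 among genes with a mean over 50, 13 and 16 with an absolute log2 fold change over 0.5, and 16 and 19 when the recovered counts of all libraries were fitted, an alternative added after the data were seen. Without single libraries they ranged from 13 to 15 and from 16 to 18. No setting named here turned a call to the opposite direction. With equal totals, HDAC7 (-0.64), KDM2B (-0.39), KDM4A (-0.37), SETD1B (-0.60) and SETD3 (-0.63), which had small positive values and no call, were called nuclear. With equal totals KDM3B (-0.24), KDM5B (-0.22), KDM8 (-0.14) and SETD6 (-0.17) also turned negative without a call. Centred on the protein-coding median, HDAC7 (-0.092), SETD1B (-0.049) and SETD3 (-0.076) turned negative. Without single libraries, a refit added after the data were seen for single genes, medians and correlations, the sign of 5 genes that were not called varied, with ranges from -0.086 to 0.12 for HDAC7, -0.30 to 0.024 for KDM4B, -0.12 to 0.043 for KDM7A, -0.048 to 0.18 for SETD1B and -0.086 to 0.17 for SETD3.

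Medians moved with every scaling. With equal totals and with the protein-coding centre, the median of all members was -0.64 and -0.092 in place of 0.02, that of HDAC genes 0.092 and 0.64, that of KDM genes -0.39 and 0.16, that of KMT genes -1.82 and -1.27, and that of SETD genes -0.63 and -0.076. Means weighted by the inverse squared standard error, given in place of medians, were -0.32 for all members, -0.11 for HDAC, -0.14 for KDM, -0.90 for KMT and -0.27 for SETD genes. Without single libraries they ranged from -0.086 to 0.043 for all members, 0.64 to 0.74 for HDAC, 0.19 to 0.34 for KDM, -1.21 to -1.12 for KMT and -0.086 to 0.17 for SETD genes, so the HDAC medians stayed positive and the KMT medians negative under these settings, while the weighted mean of HDAC genes was negative. The Spearman correlation of span with fold change was -0.457 for exonic length, -0.451 for intron length, -0.594 for members with a mean over 500, -0.436 without the 2 longest members and -0.522 to -0.488 without single libraries. The cause of these changes was not tested, beyond the constant shift that a scaling adds.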
